A study of Mus musculus with 6 samples.

Results

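The TLR4 receptor complex and its adaptors were followed in bone marrow derived macrophages (BMDMs) after lipopolysaccharide (LPS) treatment. The group holds 10 genes, chosen by name and not by their values, although earlier results of these data were known. They are the receptor genes Tlr4, Cd14 and Ly96 and the adaptor genes Myd88, Tirap, Ticam1 and Ticam2. The others are Irak3 and Irak4, genes of the IRAK family, and the ubiquitin ligase gene Traf6. All 10 were found among the 55254 genes listed, and for each the transcript with the most reads on average was used.

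The study compared 3 control BMDM libraries with 3 libraries of BMDMs lacking AUF1 (called M-Δx3,4 here), to ask how the loss of this RNA-binding protein alters the RNAs of macrophages activated through TLR4. Control cells came from C57BL/6J hnRNPDfl/fl mice, which carry the floxed hnRNPD allele without Cre, and M-Δx3,4 cells from LysCre+ hnRNPDfl/fl mice of the same strain, in which Cre under the promoter of the myeloid lysozyme gene removes exons 3 and 4. The floxed allele was therefore shared, Cre was present only in the M-Δx3,4 group, and an effect of Cre itself cannot be told apart from that of the deletion. Donors were 6 to 8 weeks old per the study's methods, marrow cells were differentiated for 10 days with medium conditioned by L929 fibroblasts, and both groups received 100 ng/ml LPS for 4 hours. No untreated cells were included, so the values describe activated macrophages. The labels do not say whether the 3 cultures of a group came from separate mice, so p-values measure only the spread between these libraries.

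LPS is the outer membrane glycolipid of Gram-negative bacteria. CD14 hands it to the complex of TLR4 and MD-2, the product of Ly96, which has no signalling tail of its own. At the plasma membrane the receptor recruits TIRAP and then MyD88, which assembles IRAK4 and its partner kinases and passes the signal to TRAF6 and on to NF-κB. After endocytosis the receptor recruits TRAM (Ticam2) and TRIF (Ticam1), which lead to interferon β. IRAK-M, the product of Irak3, restrains the MyD88 arm. AUF1 binds AU-rich elements, which lie in the 3′ untranslated regions (3′ UTRs) of many short-lived mRNAs.

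In outline, the receptor and adaptor genes did not shift together. Tirap was the 1 gene of the 10 with an unadjusted p under 0.05, 1.85-fold higher in M-Δx3,4 than in control BMDMs. Of 11875 genes tested by 1 transcript each, 3.98% were called in this way. In the region of the shorter 3′ UTR form of Tirap the fitted difference was 2.67-fold. Neither difference passed after adjustment over all transcripts tested (adjusted p = 0.984 for both by edgeR with the Benjamini-Hochberg method). The most abundant members, Myd88, Cd14 and Irak3, had lower fitted levels in M-Δx3,4 BMDMs and did not pass the test. Tlr4 itself varied 8.62-fold among the control libraries, more than the groups differed.

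The depth and the identity of the libraries bear on these values. Total counts per library ran from 5852374 to 9008878. Hnrnpd, the targeted gene, had 177.8, 104.2 and 69.6 normalized counts in control and 52.8, 12.6 and 16.0 in M-Δx3,4 libraries for its p37 transcript. The groups did not overlap (log2 fold change -2.11, standard error 0.54, unadjusted p = 0.00144, adjusted p = 0.984 by edgeR's quasi-likelihood test). Over all genes tested by 1 transcript each, the smallest adjusted p by edgeR was 0.824. By the transcript used for each gene, none therefore passed after adjustment, and neither did the p37 transcript of the targeted gene. All 7 macrophage markers had counts, and their sum overlapped, at 5375.0 to 6454.1 normalized counts in control and 4784.2 to 6261.2 in M-Δx3,4 libraries. Of these markers 1 passed the test. Lyz2, the gene in whose locus the Cre of this strain is inserted, was lower (log2 fold change -0.91, unadjusted p = 0.0089 by edgeR). Of the others, Adgre1, Mertk and Itgam had higher fitted levels and Csf1r, Cd68 and Fcgr1 lower ones. The summed level of 6 B cell markers was 299.9 to 358.5 normalized counts in control and 141.8 to 164.3 in M-Δx3,4 libraries. Igkc, the marker of this list past the test, had 223.2 to 251.8 against 59.2 to 95.5. The sum of the T cell list was 45.2 to 55.8 against 25.4 to 42.7, with Cd3e, Cd3g and Cd2 at 0. The T cell markers tested, Cd3d and Cd4, each overlapped between the groups and did not pass (unadjusted p = 0.627 and 0.258 by edgeR). The sums of the neutrophil, dendritic cell and fibroblast lists overlapped between the groups. The neutrophil sum was 242.1 to 606.7 normalized counts in control and 394.3 to 553.5 in M-Δx3,4 libraries. Col3a1, the fibroblast marker past the test, had 12, 6 and 0 counts in control and 0 in every M-Δx3,4 library (unadjusted p = 0.0113 by edgeR). Summed counts of 4 Y-linked genes were 1, 32 and 3 in control replicates 1 to 3 and 32, 56 and 74 in M-Δx3,4 replicates 1 to 3, and Xist, which marks the inactive X chromosome of females, had 6, 1 and 0 and 1, 1 and 0 counts. The labels do not give the sex of the mice, and these counts do not settle it. The part of these differences in the results below was not tested beyond the values given beside them. In bulk RNA of this kind, fewer cells of a type and less RNA per cell cannot be told apart.

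AU-rich pentamers (ATTTA in DNA letters, read on the transcript's strand) were searched in the annotated 3′ UTRs because these are the elements that AUF1 is known for. Of the 10 genes, 8 held at least 1 pentamer, against 69.4% of 9735 tested genes with an annotated 3′ UTR. None of the 10 held the longer element TTATTTATT, which contains the pentamer and occurred in 7.53% of the same genes. Ticam1 and Ly96 had no pentamer, and Ly96 was read from its transcript with an annotated 3′ UTR of 74 bases. Traf6 had 11 in 4170 bases, the most of the 10. The sites of Tirap and Tlr4, the genes on which the results below turn, are shown with 12 bases on either side, from GENCODE transcripts on mm10, 5′ to 3′, with the pentamer in capitals.

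Tirap at chr9:35186386-35186414, minus strand: tacatacaaagtATTTAaaggatactata
Tirap at chr9:35186004-35186032, minus strand: tccatatcagatATTTAcattaagattca
Tirap at chr9:35185325-35185353, minus strand: attttcttctacATTTAatcctgaaaaga
Tlr4 at chr4:66842012-66842040, plus strand: taagaatgctatATTTAttaaatacaatt
Tlr4 at chr4:66842325-66842353, plus strand: catgatttcatcATTTAttcttgattttt

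All 3 Tirap sites lie in the stretch that only the longer 3′ UTR holds: the long form has 3360 bases of 3′ UTR with 3 pentamers and the short form 1126 bases with 0. A match describes the sequence only, and binding of AUF1 was not measured in these libraries.

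The receptor genes came first. Tlr4, the signalling receptor (ENSMUST00000048096, 3′ region at chr4:66841480-66843049, plus strand), had 249.9, 57.2 and 29.0 normalized counts in control replicates 1, 2 and 3 and 96.8, 87.4 and 233.1 in M-Δx3,4 replicates 1, 2 and 3. Normalized counts are deposited read counts divided by each library's size factor. Control replicate 1 and M-Δx3,4 replicate 3 were high, control replicate 3 was lowest, and the groups overlapped. The means were 112.0 ± 120.2 and 139.1 ± 81.5 (SD, n = 3 each). The log2 fold change of M-Δx3,4 over control was 0.32 (standard error 0.62, 95% interval -1.0 to 1.64, adjusted p = 0.986 by edgeR with the Benjamini-Hochberg method). The exact permutation test, two-sided, gave p = 0.6, and 3 libraries against 3 cannot give less than 0.1.

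Single libraries decided the direction of Tlr4. Without control replicate 1 the log2 fold change was 1.69 (unadjusted p = 0.00224 by edgeR), and without M-Δx3,4 replicate 3 it was -0.28 (unadjusted p = 0.682 by edgeR). The first principal component of the libraries, over 4723 genes that include Tlr4, held 62.1% of the variance and placed control replicates 1, 2 and 3 at 30.4, -9.3 and -54.8 and M-Δx3,4 replicates 1, 2 and 3 at 5.3, 7.2 and 21.3. Tlr4 was highest in the library at the top of this axis and lowest in the library at its bottom. The genes whose levels across the 6 libraries were most like those of Tlr4 were Tmsb4x (Pearson's r = 0.997), Gbp10 (0.997) and Bmt2 (0.996). As 477 of 4722 genes had r over 0.9 with Tlr4, this likeness was widely shared, and the 6 points share their libraries and size factors.

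**Figure D1:**
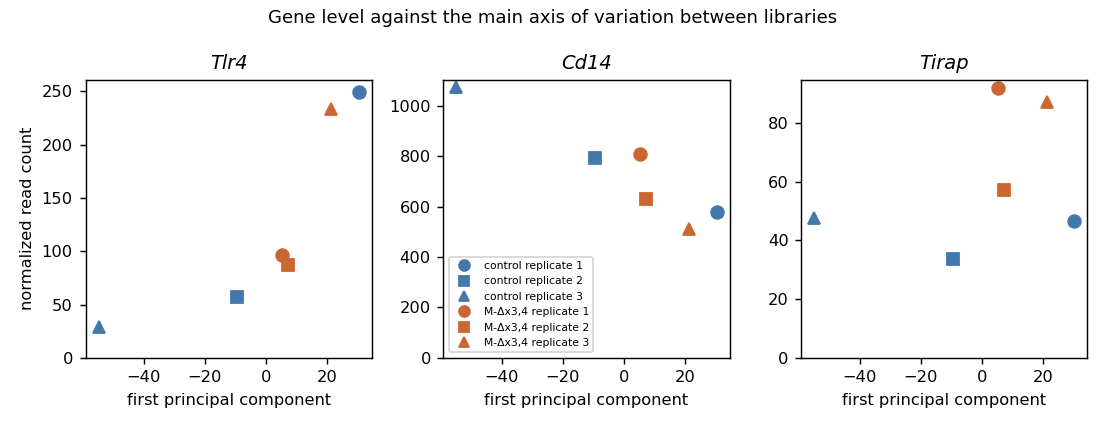
Normalized read count of Tlr4, Cd14 and Tirap (y axes from 0) against the position of each library on the first principal component (x axis, no unit), with blue control and orange M-Δx3,4 libraries. Tlr4 runs from 29.0 in control replicate 3 to 249.9 in control replicate 1 along the axis, Cd14 runs the other way from 1076.6 to 580.0, and the 3 M-Δx3,4 points of Tirap lie above the 3 control points.

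Cd14, the LPS carrier that delivers ligand to the receptor (ENSMUST00000061829), had 580.0, 792.8 and 1076.6 normalized counts in control and 810.9, 629.2 and 512.0 in M-Δx3,4 libraries. Its lowest library was M-Δx3,4 replicate 3 and its highest control replicate 3, the library in which Tlr4 was lowest, and the groups overlapped. The log2 fold change was -0.33 (standard error 0.33, 95% interval -1.03 to 0.38, adjusted p = 0.984 by edgeR). The interval places M-Δx3,4 between 0.489-fold and 1.3-fold of control.

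Ly96, which encodes the LPS-binding subunit MD-2 (ENSMUST00000190366, chr1:16709538-16709786, plus strand), was thinly counted. It had 9.3, 14.3 and 6.96 normalized counts in control and 18.6, 4.86 and 19.9 in M-Δx3,4 libraries. M-Δx3,4 replicate 2 was the lowest of all 6, the other two M-Δx3,4 libraries were above all control libraries, and the log2 fold change was 0.50 (standard error 0.62, 95% interval -0.82 to 1.82, adjusted p = 0.984 by edgeR). Its other counted region, 323 against 249 bases and starting at the same base, held fewer reads than the shorter one in 4 of 6 libraries and as many in the other two, so reads at this locus were not all assigned to both regions.

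The ratio of receptor partners within a library does not depend on the size factor. The log2 ratio of Cd14 to Tlr4 counts was 1.21, 3.77 and 5.16 in control and 3.05, 2.83 and 1.13 in M-Δx3,4 libraries. Control replicate 1 and M-Δx3,4 replicate 3 had the least Cd14 for their Tlr4, and the difference of -1.04 did not exceed the spread (exact permutation test, two-sided, p = 0.4, adjusted 0.96 over the 6 ratios tested). For Ly96 to Tlr4 it was -0.45 (exact permutation p = 0.8, adjusted 0.96).

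**Figure D2:**
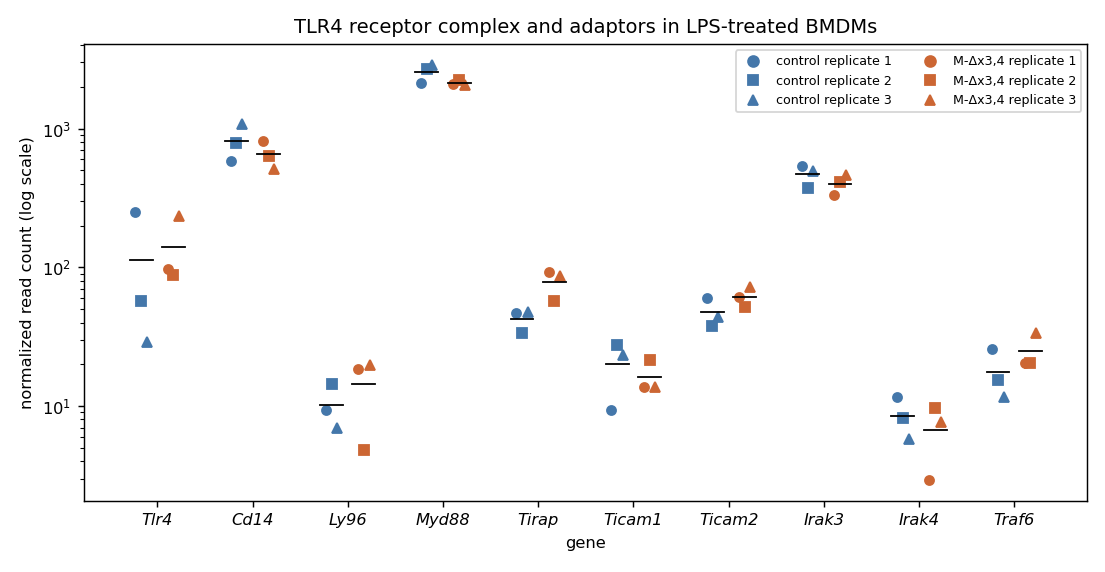
Normalized read count (log axis) of the 10 genes in each library, blue for control and orange for M-Δx3,4, with a marker shape per replicate and a black line at each group's mean. Tirap is the gene whose groups do not overlap (33.7 to 47.6 against 57.3 to 91.9), and Tlr4 spans 29.0 to 249.9 among the control libraries.

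Of the plasma membrane arm, Tirap, the adaptor that docks MyD88 to the receptor, was the member that rose. The long transcript (ENSMUST00000175765, chr9:35184302-35187910, minus strand) had 46.5, 33.7 and 47.6 normalized counts in control and 91.9, 57.3 and 87.1 in M-Δx3,4 libraries. Every M-Δx3,4 library was above every control library, with control replicate 2 the lowest and M-Δx3,4 replicate 1 the highest. This was a log2 fold change of 0.89 (standard error 0.39, 95% interval 0.06 to 1.72, unadjusted p = 0.0376, adjusted p = 0.984 by edgeR's quasi-likelihood test). The exact permutation test gave p = 0.1, the smallest that the design allows. With an unadjusted p under 0.05, 1 of the 10 genes was called, beside 3.98% of 11875 genes tested by 1 transcript each, and none of the 10 also reached a log2 fold change of 1 in either direction, beside 3.07% of those genes. Groups that did not overlap were found for 1 of 10 genes, beside 8.44%. A single call among 10 is near what these shares give.

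The Tirap call was lost in several alternative fits. With all libraries kept, it was lost with the replicate number as a block (0.87, unadjusted p = 0.0501 by edgeR) and with the GC trend removed (0.73, unadjusted p = 0.0552 by edgeR). Without control replicate 2, M-Δx3,4 replicate 1 or M-Δx3,4 replicate 3 the log2 fold change was 0.74, 0.76 and 0.81 and the unadjusted p by edgeR 0.137, 0.118 and 0.108, and over all 6 omissions it stayed between 0.74 and 1.07. Y-linked counts were 1, 32 and 3 in control replicates 1, 2 and 3 and 32, 56 and 74 in M-Δx3,4 replicates 1, 2 and 3. Their part in the Tirap difference was not tested.

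The counted regions of Tirap overlap one another, and its reads were divided on the assumption that a read of the inner region was also counted in the outer one. The files do not show this for single reads, and it did not hold at Ly96, so the counts and shares outside an inner region, for Tirap and for Myd88, are differences of 2 deposited counts and not a direct count. A pair of transcripts with the shorter 3′ UTR (ENSMUST00000176531 and ENSMUST00000177129) share 1 region, chr9:35186536-35187910, which lies inside the long one and ends before the first of the 3 pentamers shown above. Its normalized counts were 12.8, 17.4 and 17.4 in control and 40.1, 40.8 and 46.6 in M-Δx3,4 libraries. The groups were far apart relative to their spread, at 15.9 ± 2.66 and 42.5 ± 3.58 (SD, n = 3 each). In the fit their log2 fold change was 1.42 (standard error 0.42, 95% interval 0.52 to 2.31, unadjusted p = 0.00408, adjusted p = 0.984 by edgeR), or 2.67-fold, past both the p and the fold threshold, which 3.3% of the 32475 transcripts tested passed. Among the 19 member transcripts tested, these 2, with identical counts, were the ones past both thresholds. With each library left out in turn the value was 1.29 to 1.50, and the unadjusted p stayed under 0.05 each time.

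The reads of the long region that fell outside the short one did not separate the groups. They came to 33.7, 16.3 and 30.2 normalized counts in control and 51.8, 16.5 and 40.5 in M-Δx3,4 libraries. The groups overlapped, with replicate 2 low in both, and the means of 26.7 ± 9.17 and 36.3 ± 18.0 (SD, n = 3 each) did not differ beyond the spread (exact permutation test, two-sided, p = 0.4). As a share of the long region's reads, they were 72.5% (29 of 40, 95% Wilson interval 57.2 to 83.9), 48.5% (16 of 33, 32.5 to 64.8) and 63.4% (26 of 41, 48.1 to 76.4) in control. In M-Δx3,4 libraries the share was 56.4% (53 of 94, 46.3 to 66.0), 28.8% (17 of 59, 18.8 to 41.4) and 46.5% (53 of 114, 37.6 to 55.6). These intervals cover counting error only, since reads without molecular identifiers are not independent molecules. On average the share was 61.5% ± 12.1 for control and 43.9% ± 14 for M-Δx3,4 libraries, which overlapped (exact permutation test, two-sided, p = 0.2). A shift of Tirap reads between the proximal region and the rest was thus not shown at this depth. Reads in the proximal region can come from either 3′ UTR form.

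**Figure D3:**
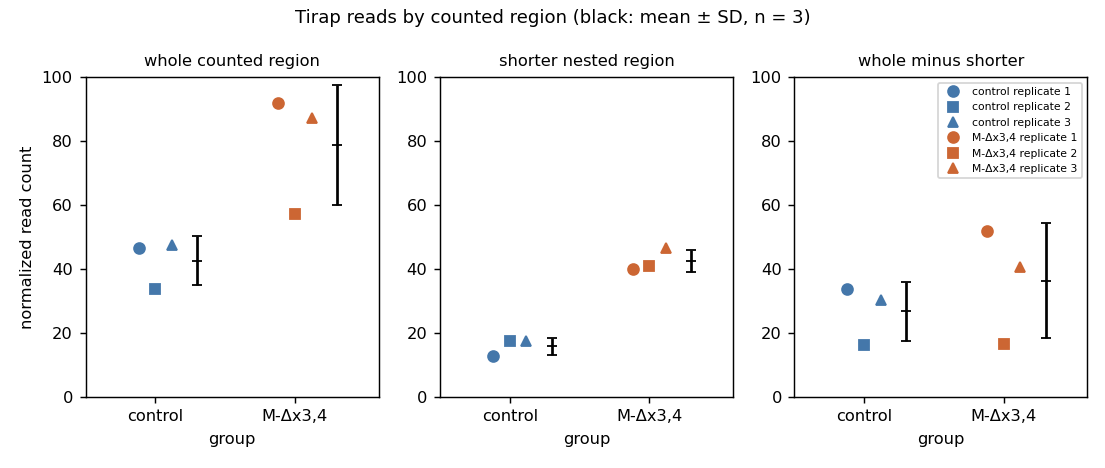
Normalized read count of Tirap (y axes from 0 to 100) in the whole counted region, in the shorter nested region and in the remainder, for control and M-Δx3,4 libraries, with black bars for mean ± SD (n = 3). The groups are separate in the first panel and further apart, relative to their spread, in the second (15.9 ± 2.66 and 42.5 ± 3.58), and they overlap in the third.

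The remaining Tirap transcripts with counts were ENSMUST00000176685, whose region lies inside the short one, and ENSMUST00000176021, at chr9:35188480-35188728. Their counts were 2, 1 and 0 and 1, 2 and 0 in the control libraries, against 4, 6 and 9 and 8, 6 and 4 in the M-Δx3,4 libraries. Both were higher in every M-Δx3,4 library, but no control library was above the floor of 3 counts, and neither passed the test (unadjusted p = 0.0893 and 0.0924 by edgeR).

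Myd88, the adaptor shared by most Toll-like receptors and the IL-1 receptors (ENSMUST00000035092, main region at chr9:119335685-119336899, minus strand), had 2142.1, 2691.1 and 2881.8 normalized counts in control and 2090.3, 2237.2 and 2066.4 in M-Δx3,4 libraries. M-Δx3,4 replicate 2 was above control replicate 1, so the groups overlapped, although control replicates 2 and 3 were the highest. This overlap depended on the scaling: in the TPM values of the authors Myd88 was at 134.2 to 160.9 in control and 126.3 to 128.0 in M-Δx3,4 libraries, which did not overlap. The log2 fold change was -0.27 (standard error 0.28, 95% interval -0.88 to 0.33, adjusted p = 0.984 by edgeR; exact permutation p = 0.2). The interval places M-Δx3,4 between 0.545-fold and 1.26-fold of control.

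Most Myd88 reads fell in a terminal window at chr9:119335697-119335945, which is counted for another transcript. The reads outside it came to 290.6, 273.8 and 444.3 normalized counts in control and 223.0, 211.7 and 267.5 in M-Δx3,4 libraries. They were lower in every M-Δx3,4 library (exact permutation p = 0.1, the smallest possible), but as a share of all Myd88 reads they were 13.6%, 10.2% and 15.4% in control and 10.7%, 9.46% and 12.9% in M-Δx3,4 libraries, which overlapped (exact permutation p = 0.3). The pentamer of Myd88 ends 32 bases before the annotated end of its 3′ UTR.

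The log2 ratio of Tirap to Myd88 counts was -5.49, -6.28 and -5.89 in control and -4.49, -5.26 and -4.56 in M-Δx3,4 libraries. It was higher in every M-Δx3,4 library, by 1.11 on average (exact permutation test, two-sided, p = 0.1, adjusted 0.6 over the 6 ratios). With any 1 library left out this difference stayed between 0.92 and 1.36.

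Irak3 and Irak4, the IRAK family genes of the MyD88 arm, differed widely in level. Irak3, the brake IRAK-M (ENSMUST00000020448, chr10:120141399-120142714, minus strand), had 533.5, 375.0 and 496.5 normalized counts in control and 331.6, 408.8 and 459.3 in M-Δx3,4 libraries. The groups overlapped, with M-Δx3,4 replicate 1 the lowest, and the log2 fold change was -0.23 (standard error 0.31, 95% interval -0.89 to 0.44, adjusted p = 0.984 by edgeR). Another Irak3 transcript, ENSMUST00000140237, counted over its own region, had 3 to 5 counts in control and 6 to 7 in M-Δx3,4 libraries and did not pass the test (log2 fold change 0.43, unadjusted p = 0.603 by edgeR).

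Irak4, the kinase that starts the cascade (ENSMUST00000074936, chr15:94567047-94568555, plus strand), had 11.6, 8.17 and 5.8 normalized counts in control and 2.93, 9.71 and 7.64 in M-Δx3,4 libraries. M-Δx3,4 replicate 1, with 3 counts, was lowest and control replicate 1 highest. The log2 fold change was -0.32 with a 95% interval of -1.82 to 1.17 (standard error 0.70, adjusted p = 0.986 by edgeR). The interval holds changes of 2-fold in either direction, so these were not excluded at this depth. The log2 ratio of Irak3 to Irak4 differed by 0.18 between the groups (exact permutation p = 0.7, adjusted 0.96).

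Traf6, the ubiquitin ligase at the end of this arm (ENSMUST00000004949, chr2:101697500-101701918, plus strand), had 25.6, 15.3 and 11.6 normalized counts in control and 20.5, 20.4 and 33.6 in M-Δx3,4 libraries. M-Δx3,4 replicate 3 was the highest, and control replicate 1 lay above the other two M-Δx3,4 libraries. For Traf6 the log2 fold change was 0.51 (standard error 0.48, 95% interval -0.52 to 1.54, adjusted p = 0.984 by edgeR).

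Of the endosomal arm, Ticam1, which encodes TRIF (ENSMUST00000058136, chr17:56269070-56269894, minus strand), had 9.3, 27.6 and 23.2 normalized counts in control and 13.7, 21.4 and 13.8 in M-Δx3,4 libraries. Control replicate 1 was the lowest and control replicate 2 the highest, so the M-Δx3,4 libraries lay within the control range. In the fit Ticam1 had a log2 fold change of -0.31 (standard error 0.52, 95% interval -1.41 to 0.80, adjusted p = 0.984 by edgeR).

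Ticam2, which encodes TRAM, the bridge between TLR4 and TRIF (ENSMUST00000070084), had 60.4, 37.8 and 44.1 normalized counts in control and 60.6, 51.5 and 72.6 in M-Δx3,4 libraries. Only M-Δx3,4 replicate 2 lay under the highest control library, replicate 1. In the fit Ticam2 had a log2 fold change of 0.38 (standard error 0.39, 95% interval -0.45 to 1.20, adjusted p = 0.984 by edgeR; exact permutation p = 0.2). Its region overlaps that of the neighbouring Tmed7 on the same strand, which held 0 to 2 counts per library. The ratios Ticam2 to Ticam1 and Myd88 to Ticam1, which set the endosomal bridge and the other arm against TRIF, differed by 0.58 and -0.06 on the log2 scale (exact permutation p = 0.5 and 1.0, adjusted 0.96 and 1.0).

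Over the 10 genes, 5 had a higher and 5 a lower fitted level in M-Δx3,4 BMDMs, beside 49.5% higher among all genes tested. Their median log2 fold change was 0.05, beside -0.01 over all genes tested. Their adjusted p-values by edgeR were 0.984 to 0.986. The higher genes were Tlr4, Ly96, Tirap, Ticam2 and Traf6 and the lower ones Cd14, Myd88, Ticam1, Irak3 and Irak4, so both signalling arms and the receptor complex had genes on either side.

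**Figure D4:**
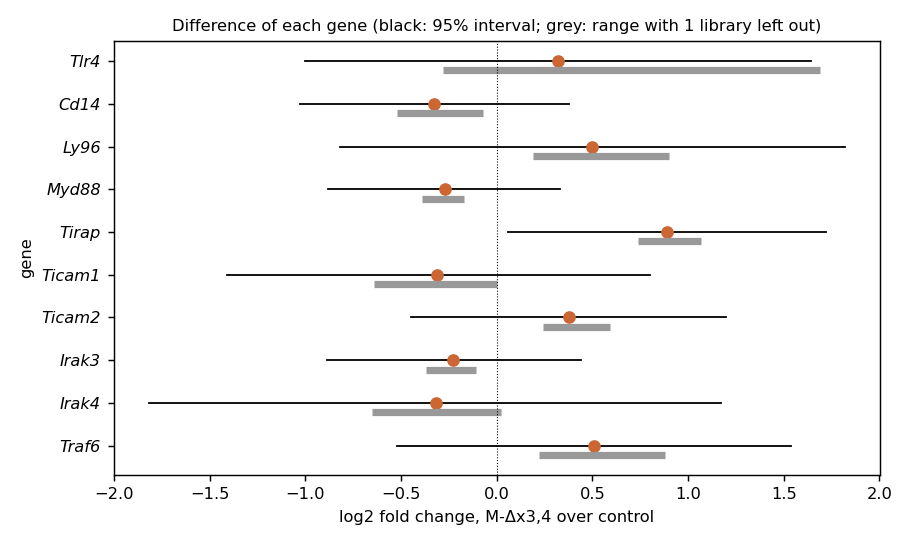
Log2 fold change of M-Δx3,4 over control (x axis) for each of the 10 genes, with the 95% interval of edgeR's fit in black and, as a grey bar, the range of the estimate with 1 library left out at a time. The interval of Tirap alone lies to the right of 0 (0.06 to 1.72), and the grey bar of Tlr4 runs from -0.28 to 1.69.

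Levels between genes were compared in the TPM values of the authors, which divide by the length of the counted region. Reads of 3′ libraries gather near transcript ends, so a long region lowers this value. In control BMDMs Myd88 was at 149.1 ± 13.6 TPM and Cd14 at 120.7 ± 31.0, with overlapping libraries (134.2 to 160.9 and 93.1 to 154.2). Irak3 followed at 25.8 ± 5.74, separate from its neighbours in this order. Tlr4 at 5.37 ± 6.04, Ly96 at 3.01 ± 1.13, Ticam1 at 1.73 ± 0.734, Ticam2 at 1.06 ± 0.318 and Tirap at 0.85 ± 0.182 formed a series in which each overlapped the next. Irak4 at 0.408 ± 0.169 and Traf6 at 0.29 ± 0.135 were lowest and overlapped each other. In M-Δx3,4 BMDMs the first 5 kept their order, while Tirap, at 1.63 ± 0.442 TPM, came before Ticam1 at 1.45 ± 0.335 and Ticam2 at 1.4 ± 0.285, with overlapping libraries. Traf6, at 0.421 ± 0.14 TPM, likewise came before Irak4 at 0.331 ± 0.162, with overlapping libraries.

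Other genes of the pathway were taken from 7 lists of 68 genes in all, chosen by function. Of these, 60 were tested, and 2 rose and 1 fell by an unadjusted p under 0.05, beside 1.45% higher and 2.53% lower among all genes tested. Their median log2 fold change was 0.02. Rab10, a GTPase that carries TLR4 to the cell surface, had 306.8, 161.4 and 192.6 normalized counts in control and 257.3, 372.9 and 503.6 in M-Δx3,4 libraries (log2 fold change 0.78, standard error 0.36, unadjusted p = 0.0493 by edgeR). The groups overlapped through control replicate 1, and the call was lost without control replicate 2 (0.60), control replicate 3 (0.70), M-Δx3,4 replicate 2 (0.79) or M-Δx3,4 replicate 3 (0.51). With all libraries kept it was lost with 1 transcript per gene (0.76), the replicate block (0.79) or the GC trend removed (0.56). It was the only gene called among the 8 tested for receptor folding and traffic, a list whose median was -0.25.

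The readouts of the TRIF arm, genes induced by way of interferon regulatory factors, held the other 2 calls, in opposite directions. Ccl5, a chemokine for T cells and monocytes, had 3232.3, 2720.8 and 3619.7 normalized counts in control and 1976.9, 1770.2 and 2259.7 in M-Δx3,4 libraries. It was lower in every M-Δx3,4 library (log2 fold change -0.67, standard error 0.29, unadjusted p = 0.0337 by edgeR), and the call was lost without control replicate 3 (-0.56) or M-Δx3,4 replicate 1 (-0.66), 2 (-0.59) or 3 (-0.77), and also with no filter (-0.67) or with the GC trend removed (-0.53). Rsad2, which encodes the antiviral enzyme viperin, had 12769.9, 8425.9 and 8310.2 in control and 9002.0, 17923.2 and 26179.3 in M-Δx3,4 libraries, which overlapped (log2 fold change 0.85, standard error 0.36, unadjusted p = 0.0328 by edgeR). That call was lost without control replicate 2 (0.75), M-Δx3,4 replicate 2 (0.84) or M-Δx3,4 replicate 3 (0.45), and also with at least 10 counts in every library (0.85) or with the GC trend removed (0.60). None of the 3 called genes had an adjusted p under 0.984 by edgeR. Of the other TRIF arm readouts, Irf7 was lower in every M-Δx3,4 library without passing the test (log2 fold change -0.48), and Isg15 had a log2 fold change of 0.33.

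No gene of the other 5 lists was called. Among the readouts of the MyD88 arm, Tnf had a log2 fold change of 0.21 and Il1b of -0.28, with 3 of 6 genes higher. Of the 17 kinases and ligases below the adaptors, 11 were higher, with a median of 0.25. Traf3, Ripk1 and Tank were higher in every M-Δx3,4 library without passing the test (log2 fold changes 0.69, 0.40 and 0.51), while Irak2 was at -0.24 and Peli1 at 0.49. Of the 7 brakes tested, Tollip was lower in every M-Δx3,4 library (log2 fold change -0.37, not past the test), Socs1 was at -0.06 and Trafd1 at -0.37. Groups that did not overlap were thus seen for 3 genes that were higher and 4 that were lower among the 60, beside 4.18% and 4.26% of all genes tested.

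Among the other Toll-like receptors, Tlr5, Tlr8 and Tlr11 had no count in any library. Tlr2 was lower in every M-Δx3,4 library (158.1, 214.6 and 153.1 against 137.9, 134.0 and 112.3 normalized counts) but did not pass the test (log2 fold change -0.45, unadjusted p = 0.195 by edgeR). Tlr3 and Tlr6 had log2 fold changes of -0.04 and 0.08. For LPS handling, Itgam, a chain of complement receptor 3, was at 0.41 and the scavenger receptor gene Cd36 at -0.20, and for traffic, Unc93b1 was at -0.48 and Rab11a at 0.17.

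**Figure D5:**
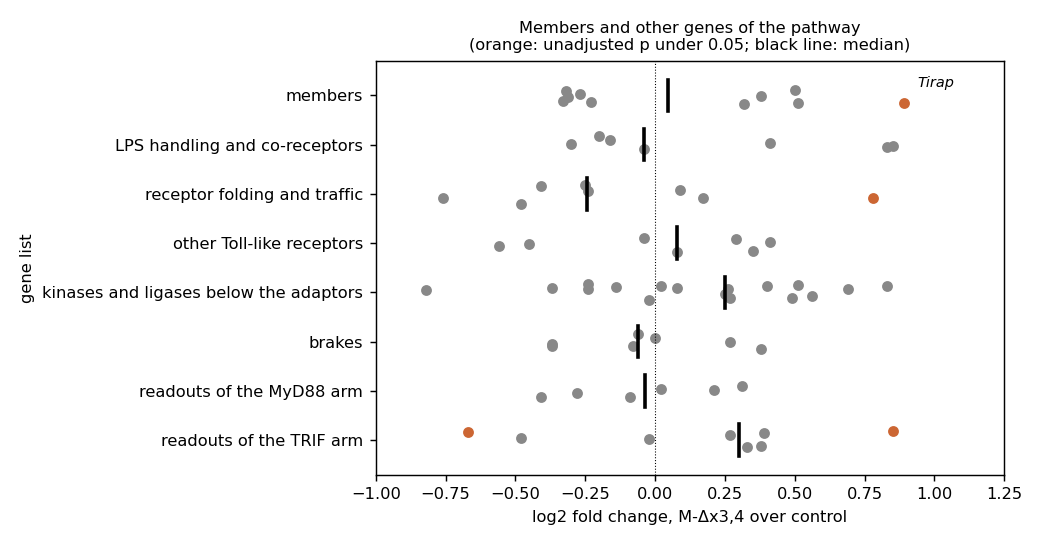
Log2 fold change of M-Δx3,4 over control (x axis) for the 10 members and the 60 tested genes of the 7 pathway lists, 1 point per gene, orange where the unadjusted p was under 0.05, with a black line at each list's median. The medians lie between -0.25 and 0.30, and 4 genes in all are orange: Tirap, Rab10, Rsad2 and Ccl5.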

How the data were processed

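The authors prepared QuantSeq 3′ mRNA-Seq FWD libraries, sequenced them on an Ion Proton, aligned reads to mm10 with TopHat2 (2.1.1) and Bowtie2, and counted reads on 3′ UTR regions with metaseqR2. The authors deposited raw counts per region, which were used for the tests, and a table with TPM per transcript. The TPM values were used to order genes by level and, for Myd88, to see whether the groups overlapped under another scaling. The other 18 columns of per-sample values and the columns of the authors' own fold changes and p-values in that table were not used. Overlapping regions can hold the same reads, though not all reads were assigned to every region that contains them, as at Ly96.

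Counts were summed over the regions of a transcript. Size factors were medians of ratios. A transcript was tested when any library exceeded the overall median normalized count of 4.89, which left 32475, at 5852374 to 9008878 total counts per library, by edgeR's quasi-likelihood test (edgeR 4.0.16, R 4.3.3) with Benjamini-Hochberg adjustment over all of them. Ratios used log2 of counts plus 1. The code was tested on simulated data. Exact permutation tests used all divisions of 3 against 3 libraries, two-sided. The 3′ UTRs came from GENCODE on GRCm38, the assembly of mm10. Alternatives were TMM, library totals, other filters, DESeq2 (1.42.0), limma-voom (limma 3.58.1), 1 transcript per gene, a GC trend, a replicate block, other transcripts and each library left out. The split of nested regions and the alternatives for other named genes were added after seeing the data.

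The members and lists were chosen with earlier results of these data known. Named were all 10 members and, of the lists, genes with an unadjusted p under 0.05 and the 2 with the highest mean level in each. Traf3, Ripk1, Tank, Tollip, Irf7 and Tlr2 were named after their values were seen, because their groups did not overlap. So were Lyz2, Igkc and Col3a1, each the marker of its list past the test.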

Additional observations from a re-analysis of the deposited data

How the results depend on the processing

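Transcripts past an unadjusted p of 0.05 and an absolute log2 fold change of 1 numbered 1071, and 1715 with no filter, 471 with filterByExpr, 265 with at least 10 counts in every library, 704 with DESeq2, 366 with 1 transcript per gene and 685 with the replicate number as a block. With each library left out they numbered 710 to 3224, the most without control replicate 1 and the fewest without control replicate 3. Members with an unadjusted p under 0.05 fell from 1 to 0 with the replicate block and to 0 with the GC trend removed, and numbered 0 to 2 with a library left out. In these 2 fits Tirap was at 0.87 and 0.73 (unadjusted p = 0.0501 and 0.0552 by edgeR's quasi-likelihood test). The second member called, without control replicate 1, was Tlr4. The other pathway genes called numbered 3, 0 with the GC trend removed and 0 to 11 with a library left out, with 11 without control replicate 1 and 0 without M-Δx3,4 replicate 2 or 3. The shorter region of Tirap stayed past the thresholds in all 15 alternative fits (1.29 to 1.59), which were chosen after seeing the data.

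With a library left out, log2 fold changes changed sign for Tlr4 (-0.28 to 1.69), Irak4 (-0.65 to 0.02), Cd36 (-0.46 to 0.18), Unc93b1 (-0.82 to 0.15), Rab11a (-0.08 to 0.38), Tlr3 (-0.28 to 0.53), Tlr6 (-0.26 to 0.47), Socs1 (-0.30 to 0.25), Trafd1 (-0.61 to 0.01), Tnf (-0.03 to 0.41) and Il1b (-0.46 to 0.05). So did the log2 ratios Ly96 to Tlr4 (-1.34 to 0.01), Myd88 to Ticam1 (-0.30 to 0.26) and Irak3 to Irak4 (-0.12 to 0.46). With the GC trend removed Rab11a was -0.21, Tlr6 -0.04 and Socs1 0.27. Tlr3 was 0.08 with limma-voom and 0.07 with the replicate block, and Irak3 was 0.43 by its transcript ENSMUST00000140237. The cause was not tested.

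Same-numbered libraries of the groups correlated at -0.213, 0.537 and -0.309 in their deviations from the group means. Not every library correlated best with its own number. The deviations cancel out within a group, so these values are tied to one another and cannot show whether the numbers pair the libraries. The replicate block left Rab10 without a p under 0.05 (0.0667 by edgeR). Depth limits Irak4, Ly96 and Ticam1, which were not tested with at least 10 counts in every library, and Irak4 also not with filterByExpr.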
